A study of Mus musculus with 16 samples.

Results

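Integrins are the receptors by which cells hold on to matrix and to each other, and 10 genes that encode their subunits were followed here through blood formation from mouse embryonic stem (ES) cells. The genes, chosen by name, were the alpha subunits Itga1, Itga4, Itga5, Itga6, Itga9 and Itgav and the beta subunits Itgb1, Itgb2, Itgb5 and Itgb7. They are 10 of the 37149 genes measured, all were tested, and all were well above background on every one of the 16 arrays. The arrays were one-colour Agilent mouse expression arrays of total RNA from 4 cell populations in 2 genotypes, with 2 arrays per group and 8 groups in all. E14 ES cells were the Sp1+/+ wild type, and the Sp1-/- knock-out cells were 1 clone carrying alleles that leave a truncated Sp1 protein without its DNA-binding domain. The submitters gave the strain of both as C57BL/6. Flk1+ cells were taken from embryoid bodies with magnetic beads. The other 3 populations were sorted on day 2 of a blast culture started from such cells, in which floating and adherent cells were combined: the first hemogenic endothelium, HE1 (KIT+ CD41- Tie2+), the second, HE2 (KIT+ CD41+ Tie2+), and progenitors (KIT+ CD41+ Tie2-).

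Each integrin is a pair of 1 alpha and 1 beta subunit, and the pair sets the ligand. In endothelium, pairs built on Itgb1 bind collagen (with Itga1), fibronectin (with Itga5) and laminin (with Itga6), and Itgav with Itgb5 binds vitronectin. Blood cells use Itga4, which pairs with Itgb1 or Itgb7 and binds VCAM1 and MADCAM1, and the leukocyte subunit Itgb2, which binds ICAMs. Endothelial cells that turn into blood let go of their neighbours and of the matrix, which is the setting of the comparisons below.

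Sp1 RNA was lower in Sp1-/- cells of every population, with a log2 change of -2.28 in Flk1+, -3.28 in HE1, -2.56 in HE2 and -2.90 in progenitors (adjusted p between 2.21e-06 and 5.98e-05). Where the probe lies relative to the truncation was not checked. The mean log2 intensity of 8 endothelial markers was highest in HE1, at 12.78 to 13.12 over the 4 arrays, and that of 8 hematopoietic markers highest in progenitors, at 11.32 to 11.66. The mean of 5 early mesoderm markers was 12.18 to 13.11 in Flk1+ cells and at most 7.46 on any other array, so the list means followed the labelled populations. Tek (Tie2) and Kdr (Flk1) in the endothelial list and Itga2b (CD41) in the hematopoietic list encode proteins used to isolate the cells. Where these genes matched, the match was partly set by the sort, and the lists were not recomputed without them. Not every marker followed its list. In Sp1+/+ cells Kdr was level, at 13.92 in Flk1+, 13.9 in HE1, 13.86 in HE2 and 13.66 in progenitors. Itga2b (12.08 and 11.66) and Gfi1 (11.45 and 10.18) were higher in Sp1+/+ HE2 than in Sp1+/+ progenitors. Each genotype filled a slide of its own, for which reason a slide effect cannot be told apart from genotype, and each population kept its own column of both slides. The 2 arrays of Sp1+/+ HE2 stood apart for several genes below, and their mean log2 intensity of 6 smooth muscle and mesenchyme markers was 12.51 and 11.27. Replicate 1 was also the higher on this list in HE1 (13.33 and 12.35 in Sp1+/+, 13.56 and 12.76 in Sp1-/-). The same held in Sp1-/- HE2 (11.83 and 11.21) and in progenitors (12.77 and 12.27 in Sp1+/+, 9.74 and 9.72 in Sp1-/-). It held in Sp1-/- Flk1+ cells (9.36 and 9.25) but not in Sp1+/+ Flk1+ cells (9.1 and 9.25). The labels only number the replicates, and the study calls them biological in its text and technical in a legend, so the p-values measure only the spread between these arrays, which may be technical. In bulk RNA such as this, fewer cells of a type and less RNA per cell cannot be told apart.

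Sp1 binds GC-rich DNA, classically the box GGGCGG, so the stretch before each gene's start was searched for these letters on both strands, as GGGCGG or CCGCCC. RefSeq promoters (build GRCm38.p6) were listed for 8 of the 10 genes and not for Itga6 and Itgb2. In the 250 bases before the start, 4 of the 8 held the box: Itgb5 with 3 copies, Itga5 with 2, and Itga4 and Itgb1 with 1 each. Itga1, Itga9, Itgav and Itgb7 held none. Of all 32851 promoters listed, 32.7% held at least 1 copy, 16.2% at least 2 and 7.7% at least 3. Shown here 5′ to 3′ on the gene's own strand are the 3 listed promoters whose genes differed between the genotypes within a population, and Itgb5, which held the most copies, with the box in capitals.
Itgb7, chr15:102231936-102232185, - strand: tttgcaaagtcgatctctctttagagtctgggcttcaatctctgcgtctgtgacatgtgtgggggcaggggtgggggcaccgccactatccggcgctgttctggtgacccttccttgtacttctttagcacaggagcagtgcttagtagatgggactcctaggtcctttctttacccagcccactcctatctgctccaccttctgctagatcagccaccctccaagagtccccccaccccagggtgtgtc
Itga9, chr9:118711442-118711691, + strand: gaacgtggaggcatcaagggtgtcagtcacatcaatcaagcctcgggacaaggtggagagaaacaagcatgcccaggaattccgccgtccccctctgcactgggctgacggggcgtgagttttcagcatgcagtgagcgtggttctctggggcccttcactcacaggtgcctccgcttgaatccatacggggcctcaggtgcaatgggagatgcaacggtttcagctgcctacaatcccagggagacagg
Itga1, chr13:115101965-115102214, - strand: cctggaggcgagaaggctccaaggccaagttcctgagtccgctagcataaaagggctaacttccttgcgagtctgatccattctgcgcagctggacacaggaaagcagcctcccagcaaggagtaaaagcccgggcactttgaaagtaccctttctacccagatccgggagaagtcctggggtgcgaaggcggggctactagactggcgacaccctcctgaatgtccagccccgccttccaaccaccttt
Itgb5, chr16:33829415-33829664, + strand: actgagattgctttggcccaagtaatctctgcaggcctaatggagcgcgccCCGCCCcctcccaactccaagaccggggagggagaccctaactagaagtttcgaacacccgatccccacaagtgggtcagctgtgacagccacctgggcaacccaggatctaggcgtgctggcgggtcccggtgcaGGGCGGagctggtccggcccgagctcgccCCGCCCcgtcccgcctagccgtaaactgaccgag
A match to 6 letters is a description of the sequence and not a binding site, and binding of Sp1 was not analysed here.

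**Figure D1:**
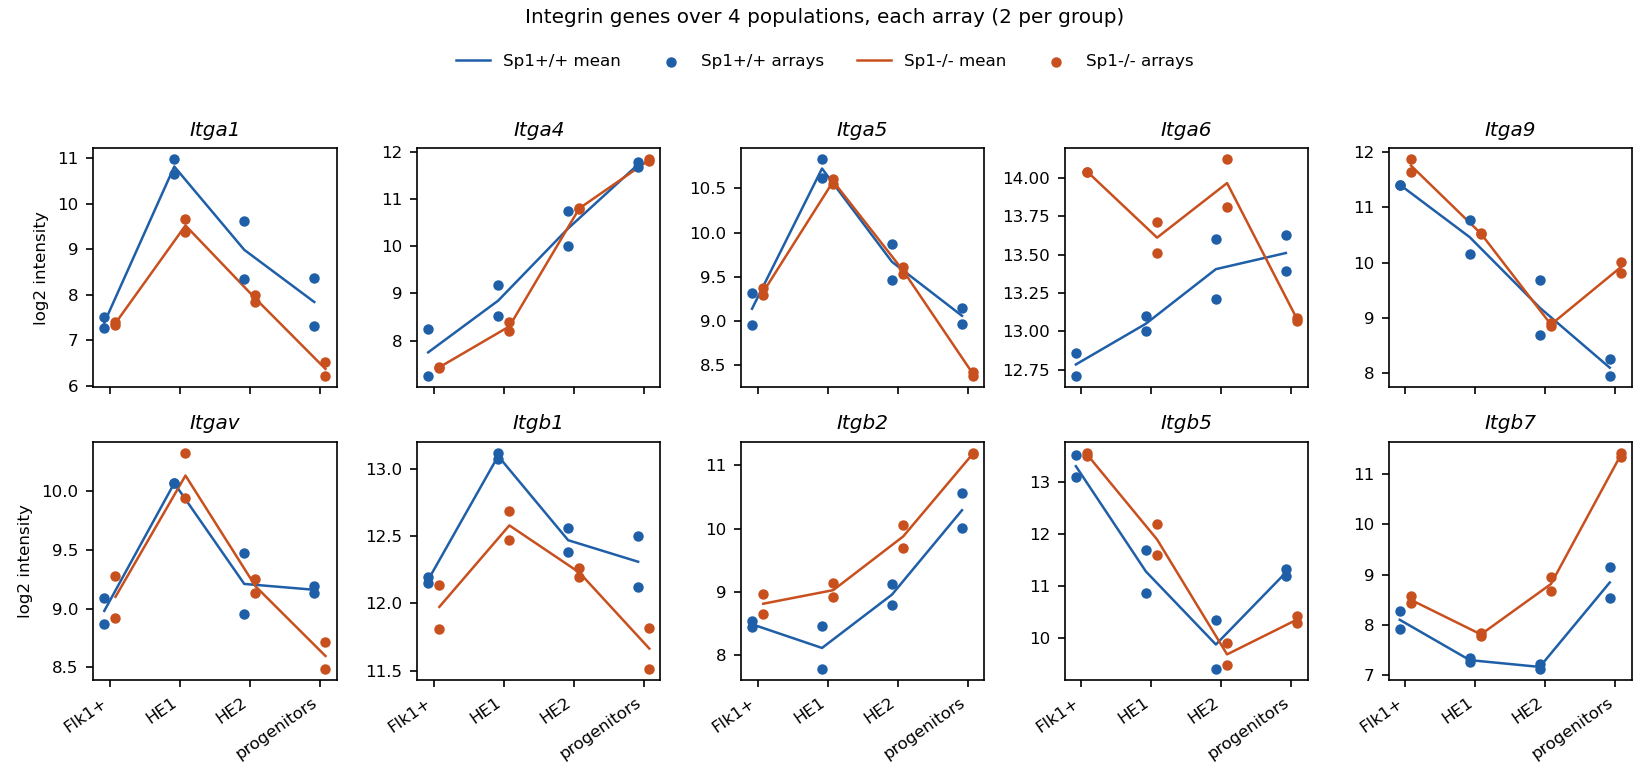
Deposited log2 intensity of the 10 integrin genes (y axes, 1 scale per panel) in Flk1+, HE1, HE2 and progenitor cells (x axes), with each array as a point and each group's mean joined by a line, Sp1+/+ in blue and Sp1-/- in orange. Itga1, Itga5, Itgav and Itgb1 peak in HE1 in both genotypes, Itga4, Itgb2 and Itgb7 are highest in progenitors, and Itga9 and Itgb5 in Flk1+ cells.

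A change between populations or genotypes was called at p of 0.01 or less and at least 2-fold. The shares of all genes, here and below, are over 37149 genes, of which 20122 had a gene symbol. A filter for signal well above background was passed by 30493 genes, and was not applied to these shares. The 10 integrin genes had such signal on every array. Shares among genes of comparable signal may be higher and are not given, so the members' excess over these shares may be overstated. Over the 3 steps from Flk1+ to HE1, HE2 and progenitors, 15 of 30 member comparisons were called in Sp1+/+ cells, where 4.53% of all genes' comparisons were, and 16 of 30 in Sp1-/- cells, where 6.69% were. From Flk1+ to HE1, 5 of 10 were called in Sp1+/+ (8.55% of all genes) and 5 in Sp1-/- cells (9.5%). The step from HE1 to HE2 had 5 called in Sp1+/+ (3.31%) and 5 in Sp1-/- cells (5.6%), and that from HE2 to progenitors 5 (1.74%) and 6 (4.99%). The levels below are deposited log2 intensities, given as replicate 1 and replicate 2, and can be compared between arrays but not between genes.

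Itga1, Itga5, Itgav and Itgb1 were at their highest in HE1 in both genotypes. Itga1, the alpha subunit of a collagen receptor, read 7.51 and 7.27 in Sp1+/+ Flk1+ cells, 10.66 and 10.98 in HE1, 8.35 and 9.63 in HE2, and for progenitors 8.37 and 7.32. In Sp1-/- cells it read 7.41 and 7.35, then 9.38 and 9.67, then 8.00 and 7.84, and finally 6.22 and 6.53. The peak stood clear of all other arrays within each genotype, but the HE2 and progenitor arrays of Sp1+/+ overlapped. Itga1 rose from Flk1+ to HE1 by 3.43 ± 0.38 (log2 change ± SE, n = 2 per group, adjusted p = 5.49e-05) in Sp1+/+ and by 2.15 ± 0.38 (adjusted p = 0.00135) in Sp1-/- cells. From HE1 to HE2 it fell by 1.83 (adjusted p = 0.0108) and 1.60 (adjusted p = 0.013), the Sp1+/+ value being -1.19 without HE2 replicate 1 and -2.47 without HE2 replicate 2, called in both. The further step to progenitors was called in Sp1-/- cells (-1.55, adjusted p = 0.0199) and not in Sp1+/+ cells (-1.14, adjusted p = 0.165), and the difference between these steps was not beyond its error (-0.40, 95% interval -1.59 to 0.79). Single arrays decided the Sp1+/+ step, which was called without HE2 replicate 1 (-1.78) or progenitor replicate 1 (-1.67) and was -0.50 and -0.62 without the other array of either group. The later Sp1-/- steps each lost their call without either of 2 arrays: HE1 to HE2 without HE1 or HE2 replicate 2 (-1.46 and -1.53), and HE2 to progenitors without HE2 or progenitor replicate 1 (-1.47 and -1.39).

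Itga5, the fibronectin receptor's alpha subunit, had close replicates. In Sp1+/+ cells it read 9.32 and 8.96 in Flk1+, 10.83 and 10.62 in HE1, 9.47 and 9.87 in HE2, and for progenitors 9.15 and 8.97. Sp1-/- cells gave 9.37 and 9.29, 10.55 and 10.61, 9.61 and 9.53, and 8.38 and 8.42. Itga5 rose into HE1 by 1.58 ± 0.15 (adjusted p = 1.57e-05) in Sp1+/+ and 1.25 ± 0.15 (adjusted p = 7.52e-05) in Sp1-/- cells, and fell into HE2 by 1.06 (adjusted p = 0.00138) and 1.01 (adjusted p = 0.000787). These falls were just past 2-fold and dropped under it without HE1 replicate 1 or HE2 replicate 1 in Sp1+/+ (-0.95 and -0.86), and without HE1 or HE2 replicate 2 in Sp1-/- (-0.98 and -0.97). A second fall, into progenitors, was called in Sp1-/- cells (-1.17, adjusted p = 0.000402), beside -0.61 (adjusted p = 0.0542) in Sp1+/+ cells, which was not called. The difference between these steps was -0.56 (adjusted p = 0.348) and was not called.

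Itgav, which takes part in receptors for vitronectin and other RGD-bearing ligands, rose from Flk1+ to HE1 by 1.09 ± 0.19 (adjusted p = 0.00115) in Sp1+/+ and 1.04 ± 0.19 (adjusted p = 0.00147) in Sp1-/- cells. Its Sp1+/+ readings were 8.87 and 9.09, 10.07 and 10.07, 8.95 and 9.47, and 9.13 and 9.19 in the order Flk1+, HE1, HE2, progenitors. Its Sp1-/- readings were 8.92 and 9.28, 9.94 and 10.33, 9.13 and 9.25, and 8.48 and 8.71. After HE1 no single step was called, the changes into HE2 being -0.86 (adjusted p = 0.013) in Sp1+/+ and -0.95 (adjusted p = 0.00469) in Sp1-/- cells. Those into HE2 were called with the processed signal (-1.05 and -1.02), in Sp1+/+ without HE2 replicate 2 (-1.12), and in Sp1-/- without HE1 replicate 1 (-1.14) or HE2 replicate 2 (-1). The rise into HE1 lost its call without Sp1+/+ Flk1+ replicate 1 (0.98), and in Sp1-/- without Flk1+ replicate 1 (0.85) or HE1 replicate 2 (0.84). Itgb1, the common partner of many alpha subunits, had the same shape at a smaller size. It read 12.20 and 12.15, 13.12 and 13.07, 12.38 and 12.56, and 12.50 and 12.12 in Sp1+/+ cells, and 11.81 and 12.14, 12.47 and 12.69, 12.20 and 12.26, and 11.51 and 11.82 in Sp1-/- cells. None of its steps reached 2-fold. The largest were +0.92 ± 0.16 into HE1 in Sp1+/+ (adjusted p = 0.00107) and -0.63 ± 0.16 from there to HE2 (adjusted p = 0.0261).

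Itga9 and Itgb5 were highest in Flk1+ cells, and their course turned differently towards progenitors. Itga9, an alpha subunit that pairs with Itgb1, read 11.41 and 11.41 in Sp1+/+ Flk1+ cells, 10.15 and 10.77 in HE1, 8.69 and 9.68 in HE2, and for progenitors 8.25 and 7.95. In Sp1-/- cells the values were 11.64 and 11.87, 10.51 and 10.54, 8.90 and 8.86, and then 9.82 and 10.02. The progenitor arrays were thus the lowest of their genotype in Sp1+/+ cells but not in Sp1-/- cells, where HE2 was. Into HE1 it fell by 1.23 ± 0.27 (adjusted p = 0.00551) in Sp1-/- cells, beside -0.95 (adjusted p = 0.0251), not called, in Sp1+/+ cells. The difference between these steps was -0.28 (adjusted p = 0.835) and was not called. Itga9 fell from HE1 to HE2 by 1.28 ± 0.27 (adjusted p = 0.0123) in Sp1+/+ and 1.64 ± 0.27 (adjusted p = 0.00171) in Sp1-/- cells. From HE2 to progenitors it fell by 1.09 ± 0.27 (adjusted p = 0.0639) in Sp1+/+ cells and rose by 1.04 ± 0.27 (adjusted p = 0.0266) in Sp1-/- cells. The 2 Sp1+/+ steps rested on single arrays: without HE2 replicate 1 or HE1 replicate 2 the first was -0.78 or -0.96, and without HE2 replicate 2 or progenitor replicate 2 the second was -0.59 or -0.93, none of them called. The Sp1-/- rise lost its call without HE2 replicate 1 (1.06), HE2 replicate 2 (1.02) or progenitor replicate 2 (0.94).

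Itgb5, the beta partner of Itgav in a vitronectin receptor, was at its lowest in HE2. It read 13.52 and 13.10, 11.69 and 10.88, 10.36 and 9.40, and 11.34 and 11.19 in Sp1+/+ Flk1+, HE1, HE2 and progenitors. The Sp1-/- arrays gave 13.57 and 13.50, 12.19 and 11.61, 9.90 and 9.48, and 10.42 and 10.30. Itgb5 fell by 2.03 ± 0.33 (adjusted p = 0.000837) into HE1 and by a further 1.41 (adjusted p = 0.0196) into HE2 in Sp1+/+ cells, and by 1.64 (adjusted p = 0.00307) and 2.21 (adjusted p = 0.000907) in Sp1-/- cells. From HE2 to progenitors it rose by 1.39 (adjusted p = 0.0511) in Sp1+/+ cells, and the change in Sp1-/- cells, 0.67 (adjusted p = 0.218), was not called. The difference between these changes, -0.72 (adjusted p = 0.648), was not called either. The Sp1+/+ calls around HE2 were lost without HE2 replicate 2 (-0.93 and 0.91), the fall into HE2 also without HE1 replicate 1 (-1) and the rise also without progenitor replicate 1 (1.31). Itga6, a laminin receptor's alpha subunit, had the narrowest range of the 10 genes, its 8 group means spanning 1.25 on the log2 scale. No step of Itga6 was called in either genotype, and the largest was -0.88 ± 0.15 (adjusted p = 0.00226) from HE2 to progenitors in Sp1-/- cells.

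Itga4, Itgb2 and Itgb7, the subunits used by blood cells, were highest in progenitors. Itga4 read 7.25 and 8.25 in Sp1+/+ Flk1+ cells, 9.17 and 8.52 in HE1, 10.75 and 10.00 in HE2, and for progenitors 11.67 and 11.79. In Sp1-/- cells it read 7.42 and 7.45, 8.40 and 8.20, 10.79 and 10.81, and 11.81 and 11.84. No population overlapped the next in either genotype. The rise was called at each of the 3 steps in Sp1+/+ cells, by 1.1 (adjusted p = 0.0237), 1.53 (adjusted p = 0.00961) and 1.35 (adjusted p = 0.0441), each ± 0.31. In Sp1-/- cells it was 2.50 ± 0.31 into HE2 (adjusted p = 0.000311) and 1.02 ± 0.31 into progenitors (adjusted p = 0.0488), the change into HE1 being 0.87 (adjusted p = 0.0611). The changes into HE1 differed between the genotypes by -0.23 (adjusted p = 0.892), not called. The first Sp1+/+ step was 0.59 without Flk1+ replicate 1 and 0.77 without HE1 replicate 1, and the last was 0.98 without HE2 replicate 2, none called. A second, dimmer Itga4 probe was well above background on 10 arrays, and the mean over both probes gave 0.64 and 0.97 for the first 2 Sp1+/+ steps, neither called. The last Sp1-/- step, near 2-fold throughout, lost its call when 1 of 8 arrays was left out (1.01 to 1.04) and with the replicate number as a block (1.02, adjusted p = 0.0583).

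Itgb2, the shared beta subunit of the leukocyte integrins, rose at the last step. Sp1+/+ cells gave 8.44 and 8.53 in Flk1+, 8.45 and 7.77 in HE1, 9.12 and 8.79 in HE2, and for progenitors 10.01 and 10.57. Sp1-/- cells gave 8.97 and 8.65, 9.14 and 8.91, 9.69 and 10.06, and 11.18 and 11.20. Into HE2 the change was 0.85 in both genotypes (adjusted p = 0.0485 and 0.031), with the arrays apart in both, and was not called. It was called in Sp1+/+ without HE1 replicate 1 (1.19) or HE2 replicate 2 (1.01) and with the processed signal (1.03), and in Sp1-/- without HE2 replicate 1 (1.04). The increase from HE2 to progenitors was 1.34 ± 0.24 (adjusted p = 0.0142) in Sp1+/+ and 1.31 ± 0.24 (adjusted p = 0.00414) in Sp1-/- cells. Itgb7, a beta subunit of lymphocyte homing receptors, read 7.93 and 8.28, 7.35 and 7.26, 7.22 and 7.12, and 8.54 and 9.15 in the same order in Sp1+/+ cells. In Sp1-/- cells it read 8.43 and 8.57, 7.79 and 7.84, 8.67 and 8.96, and 11.42 and 11.34. The 2 Sp1-/- progenitor arrays were the highest of all 16. Itgb7 rose from HE2 to progenitors by 1.67 ± 0.18 (adjusted p = 0.00058) in Sp1+/+ and 2.57 ± 0.18 (adjusted p = 2.24e-05) in Sp1-/- cells. In Sp1-/- cells it was already higher in HE2 than in HE1 by 1 ± 0.18 (adjusted p = 0.00284), a value that lay just under 2-fold and was called in 7 of 30 alternative settings.

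Set end to end, from HE1 to progenitors, 6 of the 10 genes were called in Sp1+/+ cells, where 6.64% of all genes were, and 7 of 10 in Sp1-/- cells, where 11.7% were. Itga4, Itgb2 and Itgb7 rose in both genotypes, as 2.62% of all genes did in Sp1+/+ and 5.2% in Sp1-/- cells. Falls were called for 3 genes in Sp1+/+ and 4 in Sp1-/- cells, with 4.02% and 6.5% of all genes, and Itga1 and Itga5 were among them in both. Itga4 rose by 2.88 ± 0.31 (adjusted p = 8.33e-05) in Sp1+/+ and by 3.52 ± 0.31 (adjusted p = 7.08e-06) in Sp1-/- cells, and Itgb2 by 2.18 ± 0.24 (adjusted p = 9.41e-05) and 2.16 ± 0.24 (adjusted p = 3.95e-05). Itgb7 rose by 1.54 ± 0.18 (adjusted p = 0.000136) and 3.56 ± 0.18 (adjusted p = 1.99e-07). Itga1 changed by -2.97 ± 0.38 (adjusted p = 0.000243) and -3.15 ± 0.38 (adjusted p = 7.33e-05), and Itga5 by -1.67 ± 0.15 (adjusted p = 2.56e-05) and -2.18 ± 0.15 (adjusted p = 1.1e-06). The remaining calls were made in 1 genotype. Itga9 fell by 2.36 ± 0.27 (adjusted p = 0.000124) in Sp1+/+ cells, beside -0.61 (adjusted p = 0.121) in Sp1-/- cells. Itgav and Itgb5 fell in Sp1-/- cells, each by 1.54 (adjusted p = 7.33e-05 and 0.00379). In Sp1+/+ cells Itgb5 was -0.02 (adjusted p = 0.983). Itgav was also lower there, by less than 2-fold (-0.91, adjusted p = 0.00491), and was called with the processed signal (-1.14). The Itgav changes of the 2 genotypes differed by -0.63 (adjusted p = 0.288), not called. Itgb1 was -0.79 and -0.92, and Itga6 +0.46 and -0.53, all under 2-fold. The Itgb1 change in Sp1-/- cells was called with the mean over its probes (-1.07), the second probe alone giving -1.21, and without HE1 replicate 1 (-1.03) or progenitor replicate 2 (-1.07). Over the 10 genes the median change was -0.40 in Sp1+/+ and -0.76 in Sp1-/- cells, where the median of all genes was near 0.

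**Figure D2:**
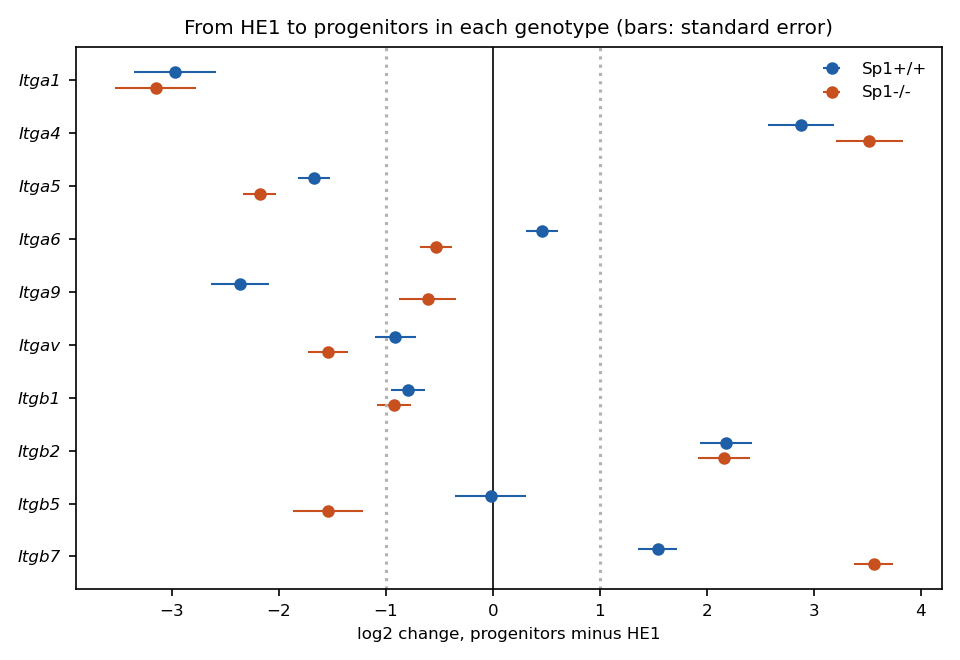
Log2 change from HE1 to progenitors (x axis) of each integrin gene (y axis) in Sp1+/+ (blue) and Sp1-/- cells (orange), as the fitted difference of 2 arrays against 2 with its standard error, and dotted lines at 2-fold. Itga4, Itgb2 and Itgb7 lie right of the line at 1 and Itga1 and Itga5 left of the line at -1 in both genotypes, and the points of Itga9, Itgb5 and Itgb7 are furthest apart between genotypes.

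Most of these genes differed by less than 2-fold between the genotypes. Over 4 populations, 6 of 40 member comparisons were called, where 2.45% of all genes' comparisons were. One gene was called in Flk1+ cells (1.65% of all genes), 1 in HE1 (2.11%), 1 in HE2 (1.94%) and 3 in progenitors (4.11%). In progenitors 2 were higher (1.51% of all genes) and 1 lower (2.59%).

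In progenitors, Itgb7 and Itga9 were higher and Itga1 was lower in Sp1-/- than in Sp1+/+ cells. Itgb7 was higher by 2.54 ± 0.18 (5.80-fold, adjusted p = 1.17e-05), its Sp1-/- arrays standing at 11.42 and 11.34 against 8.54 and 9.15. It was also higher in HE2, by 1.64 ± 0.18 (adjusted p = 0.000368), where all arrays were apart (8.67 and 8.96 against 7.22 and 7.12). The processed scanner signal gave 2.52 for this HE2 difference. In Flk1+ and HE1 the Itgb7 arrays were apart too, by 0.39 (95% interval 0.00 to 0.79) and 0.51 (0.11 to 0.91), under 2-fold. Itga9 was higher in progenitors by 1.82 ± 0.27 (3.53-fold, adjusted p = 0.00128), with 9.82 and 10.02 against 8.25 and 7.95. In the other 3 populations its differences were 0.34, 0.06 and -0.30, none called.

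Itga1 was lower in Sp1-/- cells on every array from HE1 on. The difference was -1.29 ± 0.38 in HE1 (adjusted p = 0.0576), -1.07 ± 0.38 in HE2 (adjusted p = 0.156, not called) and -1.47 ± 0.38 in progenitors (adjusted p = 0.0274), and -0.01 in Flk1+ cells. Among the called genotype differences, those of Itga1 lost their call in the most settings, 10 of 30 in HE1 and 5 of 30 in progenitors. The HE1 call was lost without any 1 of the 4 HE1 arrays (-1.46 for Sp1+/+ replicate 1, -1.13 for replicate 2, -1.15 and -1.44 for Sp1-/-), with a background offset of 16 (-1.32) and with the processed signal (-1.18). In progenitors the value was -0.95 without Sp1+/+ replicate 1 (adjusted p = 0.258) and -1.32 without Sp1-/- replicate 1 (adjusted p = 0.167), neither called, and -2.78 with the processed signal. In HE2 it was -1.71 and called without Sp1+/+ replicate 1, and -0.43 without replicate 2. A second, dimmer Itga1 probe gave -0.90 in HE1, -0.64 in HE2 and -0.59 in progenitors.

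Itga6 was higher in Sp1-/- Flk1+ cells, at 14.04 and 14.04 against 12.86 and 12.71, a difference of 1.25 ± 0.15 (2.39-fold, adjusted p = 0.000686). The processed signal gave 0.97, under 2-fold, where the call was lost. In HE1 it read 13.51 and 13.71 against 13.1 and 13, and in HE2 13.81 and 14.12 against 13.60 and 13.21, differences of 0.56 in both, and in progenitors 13.09 and 13.07 against 13.63 and 13.39, a difference of -0.43 ± 0.15 (adjusted p = 0.085). The Sp1-/- arrays were thus above the Sp1+/+ arrays in 3 populations and below them in the last.

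The remaining genes had no called difference between the genotypes. Itgb2 came nearest, with 0.92 ± 0.24 in HE1 (adjusted p = 0.0373), 0.92 ± 0.24 in HE2 (adjusted p = 0.0514) and 0.90 ± 0.24 in progenitors (adjusted p = 0.0316), all arrays of Sp1-/- being above those of Sp1+/+ in these populations. The Itgb2 difference passed 2-fold and was called without some arrays: in HE1 without Sp1+/+ replicate 1 (1.26) or Sp1-/- replicate 2 (1.03), in HE2 without replicate 1 of either genotype (1.08 and 1.11) and in progenitors without Sp1+/+ replicate 2 (1.18). Itga5, Itgav, Itgb1 and Itgb5 were lower in Sp1-/- progenitors by less than 2-fold, with -0.66 ± 0.15 (adjusted p = 0.013), -0.57 ± 0.19 (adjusted p = 0.0759), -0.64 ± 0.16 (adjusted p = 0.0193) and -0.90 ± 0.33 (adjusted p = 0.107). Itga4 differed by 0.10 in progenitors, with a 95% interval of -0.59 to 0.78, so a 2-fold difference lay outside the interval there. Its differences elsewhere were -0.32 in Flk1+, -0.55 in HE1 and 0.43 in HE2. The Itga4 arrays of the 2 genotypes were nonetheless apart in progenitors, at 11.81 and 11.84 against 11.67 and 11.79. With 2 arrays a group, such separation alone therefore does not mark a difference.

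**Figure D3:**
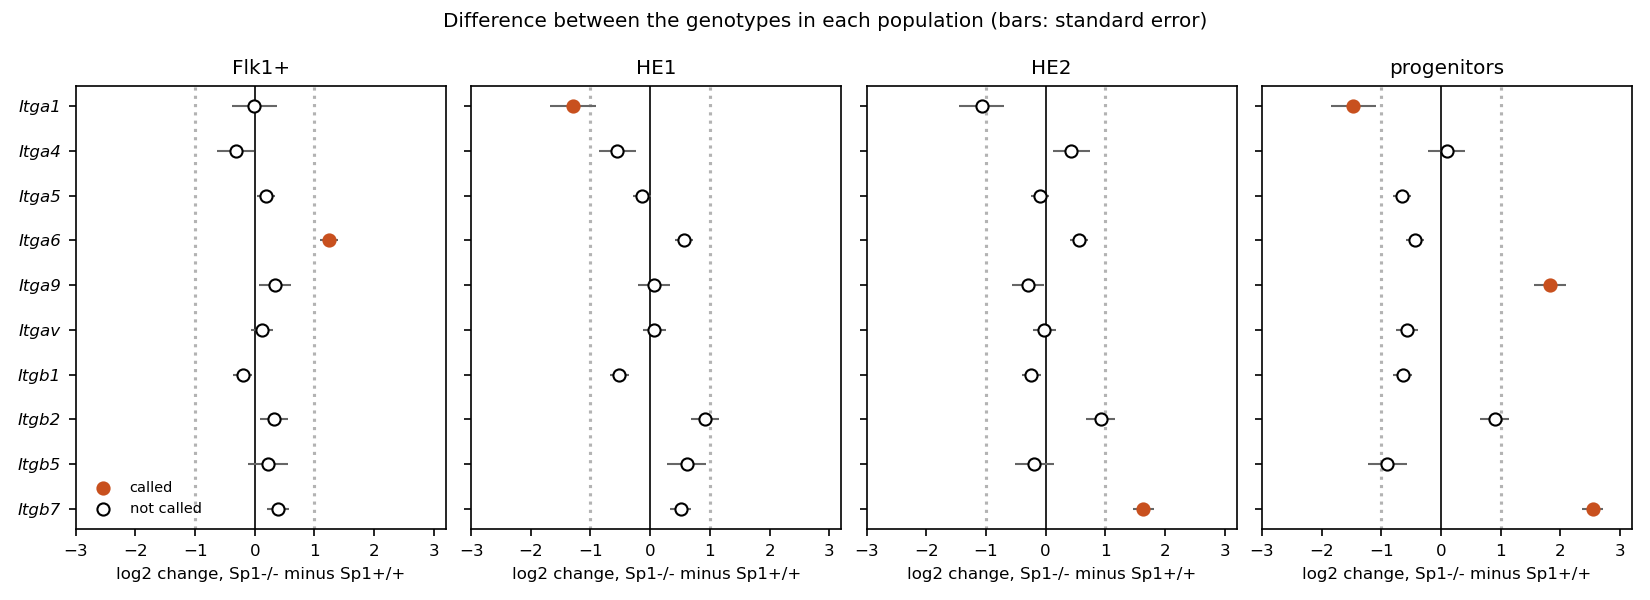
Log2 difference between Sp1-/- and Sp1+/+ cells (x axes) for each integrin gene (y axis) in the 4 populations, with the standard error of the fit, filled points where the difference was called and dotted lines at 2-fold. Filled points are Itga6 in Flk1+, Itga1 in HE1, Itgb7 in HE2, and Itga1, Itga9 and Itgb7 in progenitors.

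Whether a genotype difference itself changed along the course was tested as an interaction, and 5 of 40 member comparisons were called, where 1.75% of all genes' comparisons were. From HE1 to progenitors 3 genes were called (3.06% of all genes), from HE2 to progenitors 1 (1.59%), from HE1 to HE2 1 (0.74%) and from Flk1+ to HE1 none (1.6%). The Itgb7 difference grew by 2.03 ± 0.26 from HE1 to progenitors (adjusted p = 0.00225) and by 1.13 ± 0.26 from HE1 to HE2 (adjusted p = 0.215), the latter being 0.99 and not called without Sp1-/- HE2 replicate 2. The Itga9 difference grew by 1.76 ± 0.39 from HE1 to progenitors (adjusted p = 0.0352) and by 2.12 ± 0.39 from HE2 to progenitors (adjusted p = 0.0366). For Itgb5 the difference moved by -1.52 ± 0.47 from HE1 to progenitors (adjusted p = 0.127), from 0.61 to -0.90, and this call was lost when 1 of 8 arrays was left out, with values from -1.12 to -1.59. Itga6 moved by -0.99 ± 0.21 from HE1 and from HE2 to progenitors (adjusted p = 0.0285 and 0.0618), just under 2-fold, and was called when 1 of 4 arrays was left out in the first case and 1 of 3 in the second (-1 to -1.18). Between Flk1+ and HE1 limma called 0 of the 10 genes, with 2 at an unadjusted p under 0.05. The Itga1 value there was -1.28 (95% interval -2.48 to -0.09, adjusted p = 0.343), and it was called with only the arrays compared in the fit (-1.28) and without Sp1+/+ HE2 replicate 1 (-1.28) or replicate 2 (-1.29). For Itga1, Itga4 and Itgb2 the change of the genotype difference from HE1 to progenitors could not be told from 0, with -0.17 (95% interval -1.37 to 1.02), 0.64 (-0.33 to 1.61) and -0.02 (-0.77 to 0.74).

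Beyond the 10 genes, 14 of 16 other integrin subunit genes were tested, 9 of them well above background on all arrays and 2 on none. From HE1 to progenitors, 3 rose and 3 fell in each genotype. Itgb3, the platelet partner of Itga2b, rose by 4.46 (adjusted p = 3.21e-05) in Sp1+/+ and 3.60 (adjusted p = 4.58e-05) in Sp1-/- cells. Itgax, a leukocyte subunit, rose by 2.13 and 2.61 (adjusted p = 0.000273 and 2.8e-05). It was not well above background in HE1, so the size of these rises is uncertain. Itga2b encodes CD41, on which the cells were gated, and rose by 1.06 (adjusted p = 0.0474) in Sp1+/+ cells and not called in Sp1-/- cells (0.76). Itgal rose in Sp1-/- cells by 1.43 (adjusted p = 3.88e-06), beside 0.47 in Sp1+/+ cells. Itga3, a laminin receptor subunit, fell by 1.82 (adjusted p = 0.00019) and 2.50 (adjusted p = 7.99e-06), and Itga7, another laminin receptor subunit, by 1.03 (adjusted p = 0.00153) and 3.60 (adjusted p = 1.55e-07). The brightest Itgam probe fell by 1.14 and 1.97, but its other 2 probes, far dimmer, gave -0.29 and -0.47, and 0.87 and 0.73, so the probes disagree. Between the genotypes, Itga3 was lower in Sp1-/- cells in HE1 (-1.27, adjusted p = 0.00698), in HE2 (-1.21, adjusted p = 0.00954) and in the progenitors (-1.95, adjusted p = 0.000242), Itga7 was lower in progenitors (-2.10, adjusted p = 2.83e-05), and Itga8 was higher in Flk1+ cells (1.33, adjusted p = 0.0905).

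Ligands of these receptors include matrix proteins and cell surface partners. Of 23 ligand genes in Sp1+/+ cells, 12 were lower in progenitors than in HE1 (4.02% of all genes) and 2 higher (2.62%). In Sp1-/- cells 18 were lower (6.5% of all genes) and 2 higher (5.2%). In Sp1+/+ cells the largest changes were in Icam2, an ICAM of endothelium (-4.53), Spp1, which encodes osteopontin (3.81), and the collagen IV genes Col4a1 (-3.58) and Col4a2 (-3.39). Madcam1, the mucosal ligand of Itga4 with Itgb7, fell furthest in Sp1-/- cells (-6.89, adjusted p = 1.21e-06). Between the genotypes, 3 ligands were higher in Sp1-/- HE1, where 2.11% of all genes were called in either direction. They were Madcam1 (1.74, adjusted p = 0.0423), Vcam1 (1.66, adjusted p = 0.0199) and Lama1 (1.56, adjusted p = 0.0196). In progenitors 14 of 23 were lower (2.59% of all genes) and none higher (1.51%). The lower ones were led by Col1a1 (-4.70, adjusted p = 0.00354), Nid1 (-3.74, adjusted p = 4.95e-05), Col4a1 (-3.18, adjusted p = 0.000359) and Lamb1 (-3.01, adjusted p = 1.06e-05). The median over the 23 genes was -1.28 there, beside 0.02 over all genes.

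Inside the cell, talins, kindlins and their partners switch integrins on and tie them to actin, and 30 such genes were followed. Progenitors had 4 of them higher and 4 lower than HE1 in Sp1+/+ cells, against 6 higher and 4 lower in Sp1-/- cells. The shares of all genes were those given for the ligands. In Sp1+/+ cells Apbb1ip, which links Rap1 to talin (3.07, adjusted p = 2.74e-06), Rasgrp2, a Rap1 activator of platelets (2.74, adjusted p = 4.31e-06), and the blood kindlin Fermt3 (2.31, adjusted p = 9.8e-06) rose, and the adaptor Bcar1 (-2.19, adjusted p = 5.85e-05) fell. In Sp1-/- progenitors 3 of the 30 were higher than in Sp1+/+ (1.51% of all genes) and 3 lower (2.59%). The largest of these differences were in Fermt2, the kindlin of non-blood cells (-2.46, adjusted p = 1.46e-05), Parva (-2.29, adjusted p = 3.96e-05), Bcar1 (-1.68, adjusted p = 0.000585) and Parvb (1.19, adjusted p = 0.0213). The median was 0.08.

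Markers of other cell types moved with the progenitor differences. Of all genes, 1.51% were called higher and 2.59% lower in Sp1-/- than in Sp1+/+ progenitors. The 6 smooth muscle and mesenchyme markers had a mean log2 intensity of 12.27 to 12.77 in Sp1+/+ and 9.72 to 9.74 in Sp1-/- progenitors, 5 of them being lower in Sp1-/- cells, among them Acta2 (-3.71) and Tagln (-3.66), and every marker of this list was above background in both groups. Endothelial markers, 3 of 8 of them lower (Esam -2.66, Cdh5 -2.39, Eng -1.76), stood at 10.19 to 10.97 and 9.29 to 9.58. Of the 4 epithelial markers, 2 were lower (Krt8 -4.40, Krt18 -3.46), at 10.27 to 10.41 and 8.34 to 8.42. All 4 megakaryocyte markers were higher (Vwf 2.13, Gp1bb 1.96, Gp9 1.45, Pf4 1.17), at 9.30 to 9.76 and 11.02 to 11.39. Of 8 hematopoietic markers, Ptprc was higher (1.28) and Gfi1 lower (-1.94), at 11.32 to 11.52 and 11.58 to 11.66. Of 3 macrophage markers tested, only Csf1r was higher (1.47), at a list mean of 9.26 to 9.69 and 9.86 to 9.87. The other macrophage markers, Adgre1 (-0.17) and Lyz2 (-0.13), were not called, and the median of this list was -0.13. Of the 4 sort markers, Kit was lower (-1.23). No early mesoderm or pluripotent marker was called, with 1 of the 5 mesoderm genes and 3 of the 4 pluripotency genes above background on at least 1 Sp1-/- progenitor array. The part of these other cells in the Itga1, Itga9 and Itgb7 differences was not tested. In Flk1+, HE1 and HE2 the endothelial, smooth muscle and epithelial lists differed less, with no endothelial or epithelial marker called and only Myl9 of the smooth muscle list lower (-1.19 in HE1, -1.26 in HE2). Of the 8 hematopoietic markers Ptprc (1.49) was called higher in HE2, of 3 macrophage markers Csf1r (1.75) and of 4 megakaryocyte markers Vwf (1.08). The medians of these lists in HE2 were 0.66, 0.21 and 0.69, with Gfi1 at -0.83 and Pf4 at -0.37. In HE1, Runx1 (1.54) and Gfi1b (1.09) of the hematopoietic and Vwf (1.62) of the megakaryocyte markers were higher (medians -0.03 and 0.24). The part of these genes in the higher Itgb7 of HE2 and the lower Itga1 of HE1 was not tested either.

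**Figure D4:**
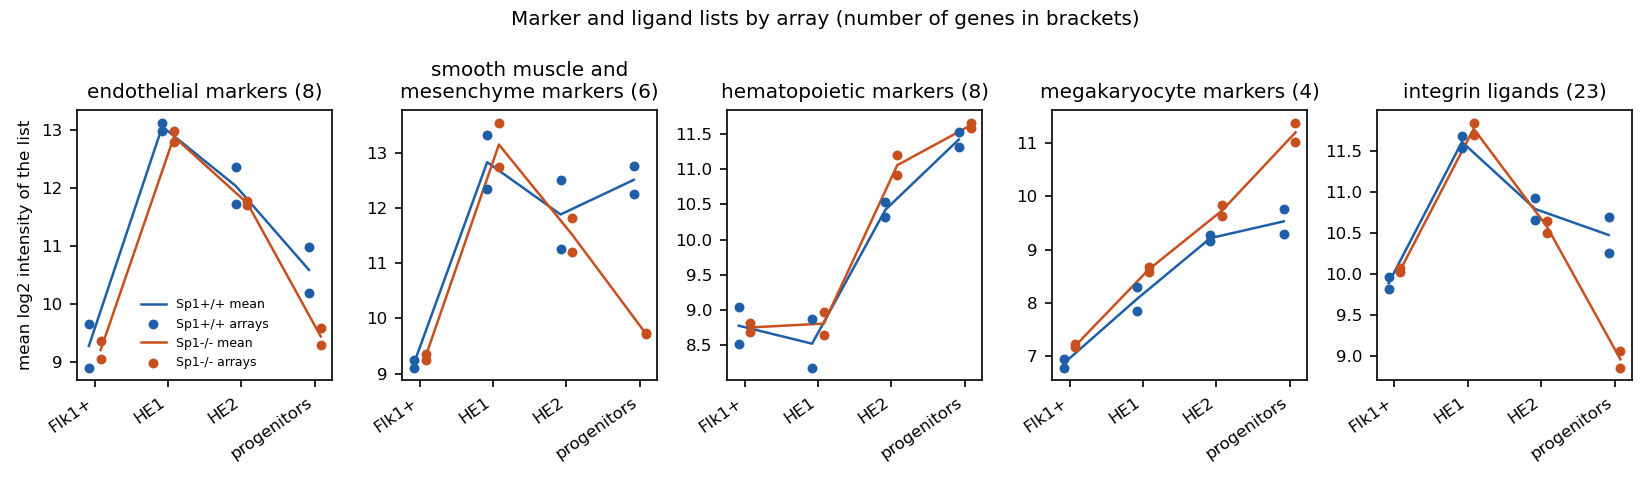
Mean log2 intensity (y axes) of the genes of 5 lists in the 4 populations (x axes), with each array as a point and group means joined, Sp1+/+ in blue and Sp1-/- in orange. In progenitors the smooth muscle and mesenchyme list stands at 12.27 to 12.77 in Sp1+/+ against 9.72 to 9.74 in Sp1-/- cells, and the ligand list at 10.26 to 10.69 against 8.86 to 9.07, while megakaryocyte markers stand higher in Sp1-/- cells.

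For the 4 genes with the widest range of group means, the genes most like them over the 8 groups were found by Pearson's correlation, as a description of 8 points from the same arrays. Itga1, whose means spanned 4.44, was followed most closely by Ggcx (0.994), Cd109 (0.993) and Prrg2 (0.989). Itga4, with a span of 4.39, was nearest to Gypc (0.995), Alox5 (0.995) and Tec (0.993), genes of red cell membrane, leukotriene synthesis and blood cell signalling. Itgb7, with a span of 4.21, ran with BC021767 (0.997), Cgn (0.994) and Cideb (0.991), and Itgb5, with a span of 3.84, with R3hdml (0.978), Ngfr (0.965) and Mical1 (0.964). The like genes of Itga1 and Itgb5 included some that moved little, Ggcx over 0.77 and R3hdml over 0.80 on the log2 scale. Among the members themselves, Itga1 correlated with Itgb1 at 0.98, Itga5 with Itgav at 0.97 and Itgb2 with Itgb7 at 0.88 over the same 8 means, and Itga4 with Itga9 at -0.88.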

How the data were processed

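RNA of 16 samples was hybridised to one-colour (Cy3) Agilent arrays of 62976 spots. The authors scanned them with Agilent Feature Extraction (10.7.1.1 per the labels, 10.7.3.1 per the file headers), whose deposited intensity columns were used for alternatives, and deposited log2 intensities after limma background correction (normexp) and quantile normalization. The methods give an offset of 16 for this correction, but an offset of 50 gave the deposited log2 values to within 0.0258, and 16 to within 1.6258. Low intensities are compressed by the larger offset. On every array 67.0 to 77.1% of spots were well above background, and 0 were saturated. The number of arrays limits the precision.

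From the deposited log2 values, control spots and outlier-flagged spots were dropped, spots of a probe averaged, probes kept at 6 or more on at least 1 array (55595 of 55681), and the brightest probe taken per gene. RefSeq accessions named 20869 of 37932 targets and symbols 12 more, and 17051 kept the file's name. One limma model (3.58.1, R 4.3.3) over 8 groups and 16 arrays, with shared spread and 8 residual degrees of freedom, gave moderated tests of 37149 genes for 16 comparisons, Benjamini-Hochberg adjusted over all genes. A call was an unadjusted p of 0.01 or less with at least 2-fold, and all errors are standard errors of that model with 95% intervals. The fit was tested on simulated data. Tables were read with Python 3.11.15 and pandas 2.3.3.

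All 10 integrin genes are named, with other integrin subunits where called, at most 4 genes of each ligand, linker or marker list by size of change (more beside a result they moved with), and 3 like genes for the 4 members of widest range. The members and lists were chosen with earlier results of these data known. Alternatives were other background corrections and scalings, filters, probe rules, thresholds, fits and each array left out in turn. Same-numbered arrays of 28 pairs of groups correlated in their deviations at -0.174 to 0.503 (median 0.0381), with 11 pairs over 0.1. The labels do not say whether same-numbered arrays came from the same culture. The numbers were not taken to pair the arrays in the main fit, and a fit with them as a block is given below.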

Additional observations from a re-analysis of the deposited data

Results flagged for a closer look

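In 5 cases the genotype difference of an integrin gene, Sp1-/- minus Sp1+/+, differed between 2 populations by the interaction test. For Itgb7 it was larger in progenitors than in HE1 by 2.03 (log2, adjusted p = 0.00225 by limma) and larger in HE2 than in HE1 by 1.13 (adjusted p = 0.215). For Itga9 it was larger in progenitors than in HE2 by 2.12 (adjusted p = 0.0366) and than in HE1 by 1.76 (adjusted p = 0.0352). For Itgb5 it moved by -1.52 from HE1 to progenitors (adjusted p = 0.127). The Itgb5 value and the smaller Itgb7 value did not pass 0.05 after adjustment over all genes.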

How the results depend on the processing

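Over 30 settings, 2232 values were recomputed for the 75 integrin gene comparisons that were called in at least 1 setting with a test. Of these values 0 turned direction, 170 lost a call and 53 gained one. Comparisons never called, among them those near 0, were left out, so the absence of reversals was largely set by this choice. At an adjusted p of 0.05 the 5 interaction calls became 3, and at 0.01 they became 1 and the 15 Sp1+/+ steps became 7. With only the arrays compared in the fit, the Sp1+/+ steps numbered 10. A test of each gene on its own arrays, without the shared spread of limma, left 3 genotype differences, 1 Sp1+/+ step, 10 Sp1-/- steps and 1 Sp1+/+ change from HE1 to progenitors. After adjustment at 0.01 that test left 0 in each of these and 0 in Sp1-/- from HE1 to progenitors. Before adjustment it gave p under 0.05 for 11 of 40 genotype differences, 9 of 30 Sp1+/+ steps and 21 of 30 Sp1-/- steps. From HE1 to progenitors it did so for 7 of 10 genes in Sp1+/+ and 10 of 10 in Sp1-/- cells. The share of all genes under this p was not counted, so these counts have no background. That test was not run for the interactions. For the other counts here, shares of all genes were given above for the main setting only. Leaving out each array in turn gave 5 to 8 genotype differences, 13 to 15 Sp1+/+ and 13 to 17 Sp1-/- steps, 6 to 6 and 7 to 8 changes from HE1 to progenitors, and 4 to 7 interactions. With the replicate number as a block the counts were 6, 15, 15, 6, 7 and 5, and 1 call was lost, that of Itga4 from HE2 to progenitors in Sp1-/- cells (1.02). With the processed signal the median over all genes was 0.188 for the HE1 genotype difference and -0.108 from Flk1+ to HE1 in Sp1+/+ cells, against 0.01 and -0.01 with the deposited values. The causes were not tested. With 2 arrays a group, 1 clone and 1 slide per genotype, differences under 2-fold are poorly resolved.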
